A study of Mus musculus with 4 samples.

Results

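The gasdermins are a family of proteins that punch pores into cell membranes, and their messenger RNAs were followed here through every array probe whose gene name begins with Gsdm. That choice took in 9 of the 41174 probes on each array, carrying 8 of 28095 gene names: Gsdma, Gsdma2, Gsdmc, Gsdmc2, Gsdmc3, Gsdmcl1, Gsdmcl-ps and Gsdmd. Within the family the probes were taken by name alone, though the family itself was chosen with earlier results of these data known. Of the 9, 6 probes for 5 genes gave a signal well above background on all 4 arrays and could be tested.

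Skin of full thickness was taken from the backs of 42-day-old male mice, and its hair follicles are labelled telogen, the stage of rest between rounds of hair growth. The cKO mice, labelled Fgf18 cKO with strain C57BL/6, had the fibroblast growth factor gene Fgf18 conditionally knocked out in keratin 5-positive epithelium, so the other skin cells were not targeted. The WT mice were C57BL/6. For either genotype the polyA RNA of 3 mice was combined into 1 pool, which was read on 2 one-colour Cy3 arrays, so that every n = 2 below is a pair of duplicate arrays of 1 pool. Each SD, SE and p-value therefore measures the spread between duplicate arrays, and the tests compare 2 RNA pools and not the genotypes, since variation among mice was not measured. The study's design asks which genes respond to Fgf18 in telogen skin.

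A gasdermin consists of a pore-forming amino-terminal domain held inactive by a carboxy-terminal domain. When a protease cuts the linker between them, the freed part inserts into the membrane and lets out small proteins such as mature interleukin 1, and the cell may then burst, a form of death called pyroptosis. Gsdmd is the member cut by inflammatory caspases in many cell types. Gsdma and its neighbouring copies are expressed mainly in epithelium of skin and upper gut, and changes in a related mouse copy, Gsdma3, are known for causing hair loss. The Gsdmc copies are known from epithelia, the intestine among them, and their human counterpart can be cut by caspase 8.

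The probes sit at 3 places in the genome, given on mm9 as the scanner files place them. The gene models of that build were not used here, so whether a probe lies in coding sequence is not stated. On chromosome 11 the Gsdma2 probe (NM_029727) spans chr11:98513359-98513889, which is longer than its 60 bases, and 23.9 kb further on lie the Gsdma probes (NM_021347), at chr11:98537811-98537870 and chr11:98537914-98537973, 43 bases apart. On chromosome 15 the Gsdmc group stretches over 149 kb, from Gsdmc (NM_031378, chr15:63608169-63608228) through Gsdmc2 (chr15:63657825-63658375), Gsdmcl1 (chr15:63681350-63682017) and Gsdmc3 (NM_183194, chr15:63689822-63689881) to Gsdmcl-ps (chr15:63756833-63756892). Gsdmd (NM_026960) lies alone at chr15:75697536-75697595, a distance of 11941 kb from that group.

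Whether a probe can tell one copy from another depends on its letters, which the scanner files give. The whole 60-base probes of Gsdma2, which changed most, and of Gsdmd, whose pool levels lay close together, read as follows, 5′ to 3′.
Gsdma2: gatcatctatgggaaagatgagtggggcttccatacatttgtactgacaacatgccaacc
Gsdmd: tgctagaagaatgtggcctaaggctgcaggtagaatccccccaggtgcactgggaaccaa
The first 30 bases of the Gsdma probes, which read the same transcript, are shown because the probes share no identical run of over 5 bases on either strand.
Gsdma at chr11:98537811-98537870: ctccaggctgaggacaactgaaatgccagc
Gsdma at chr11:98537914-98537973: ctaagcccatctcctgatgcttaaatcctg
The Gsdmc and Gsdmc3 probes are the closest pair of the family. The 30 bases below are positions 7 to 36 of the Gsdmc probe and 26 to 55 of the Gsdmc3 probe, with capitals at the bases where they differ.
Gsdmc: caagcccagcctcAgTcctggatacatttg
Gsdmc3: caagcccagcctcCgAcctggatacatttg
Of these 30 bases 28 match. Over their whole overlap of 41 bases 36 match, or 87.8%, and the longest identical run is 15 bases. Every other pair among the 9 probes matched at 60% or less of its best overlap. None of the 9 shared a run of 20 bases with any other of the 41174 probes. The level printed for Gsdmc or Gsdmc3 could therefore hold some signal of the other, which was not tested. The Gsdmc2 probe is listed against 4 RefSeq accessions, which include one of Gsdmc (NM_031378), so its signal belongs to no single copy.

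Before any change is read, the pools need to be described. The cKO pool, labelled telogen like the WT pool, carried the keratins of growing hair. All 10 hair shaft keratins tested rose, and their summed scaled level, in multiples of each array's 75th percentile, was 118 to 119 in cKO against 0.48 to 0.54 in WT, where 5 of the 10 were not well above background. Of 8 genes of the inner root sheath and the companion layer, 6 rose, with summed levels of 245 to 250 in cKO and 26.3 to 27.4 in WT. Most of the WT sum came from the companion layer keratin Krt75, which was not called. It gave 27544 and 30069 of the list's summed processed signals of 33439 and 36093 in WT. Krt71 of the inner root sheath rose by log2 8.13 and Krt27 by 8.09, and Krt25 was at least 703.5-fold higher. The skin's own markers were present: all 13 genes of differentiated epidermis and all 7 of basal epidermis on the lists passed the filter on dim probes. Fgf18 had signals of 5096 and 5293 in cKO and 5748 and 6076 in WT, a log2 difference of -0.33 (SE 0.027, limma adjusted p = 0.0053), under 1.5-fold. Which part of Fgf18 was removed is not in the labels, so this probe checks nothing. Gapdh had log2 changes of -0.50 and -0.53 by its probes (limma adjusted p = 0.0035 and 0.0031). Actb had -0.23 and -0.16 (limma adjusted p = 0.012 and 0.037), and none of these was called. Lower values of such a size were thus not confined to the gasdermins and the genes that act with them. Between 62.1% and 69.1% of spots per array were well above background, duplicates correlated at r = 0.996 (cKO) and 0.995 (WT) across probes, and the highest r between pools was 0.969.

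Among the gasdermins, 2 probes rose in the cKO pool, those of Gsdma2 and 1 of Gsdma, and none fell. At an unadjusted limma p under 0.05, 1 probe, that of Gsdmd, was lower. A probe was called higher or lower at a limma adjusted p under 0.05, over all 26068 probes tested, with a change of at least 1.5-fold. By the same rule 9.72% of all probes were called, 4.92% higher and 4.8% lower. The 2 of 6 is a small count, and the pair of Gsdma probes among the 6 read the same transcript. By its brightest probe Gsdma was not called. An adjusted p under 0.05 without the fold was reached by 4 of the 6, where 50.3% of all probes reached it. The arrays of the pools did not overlap for 5 of the 6, against 79.8% of all probes. The median log2 change of the 6 was 0.19, against -0.06 over all probes. In whole skin, more cells of a type and more RNA per cell cannot be told apart. Levels below are log2 multiples of each array's 75th percentile and changes are cKO minus WT.

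**Figure D1:**
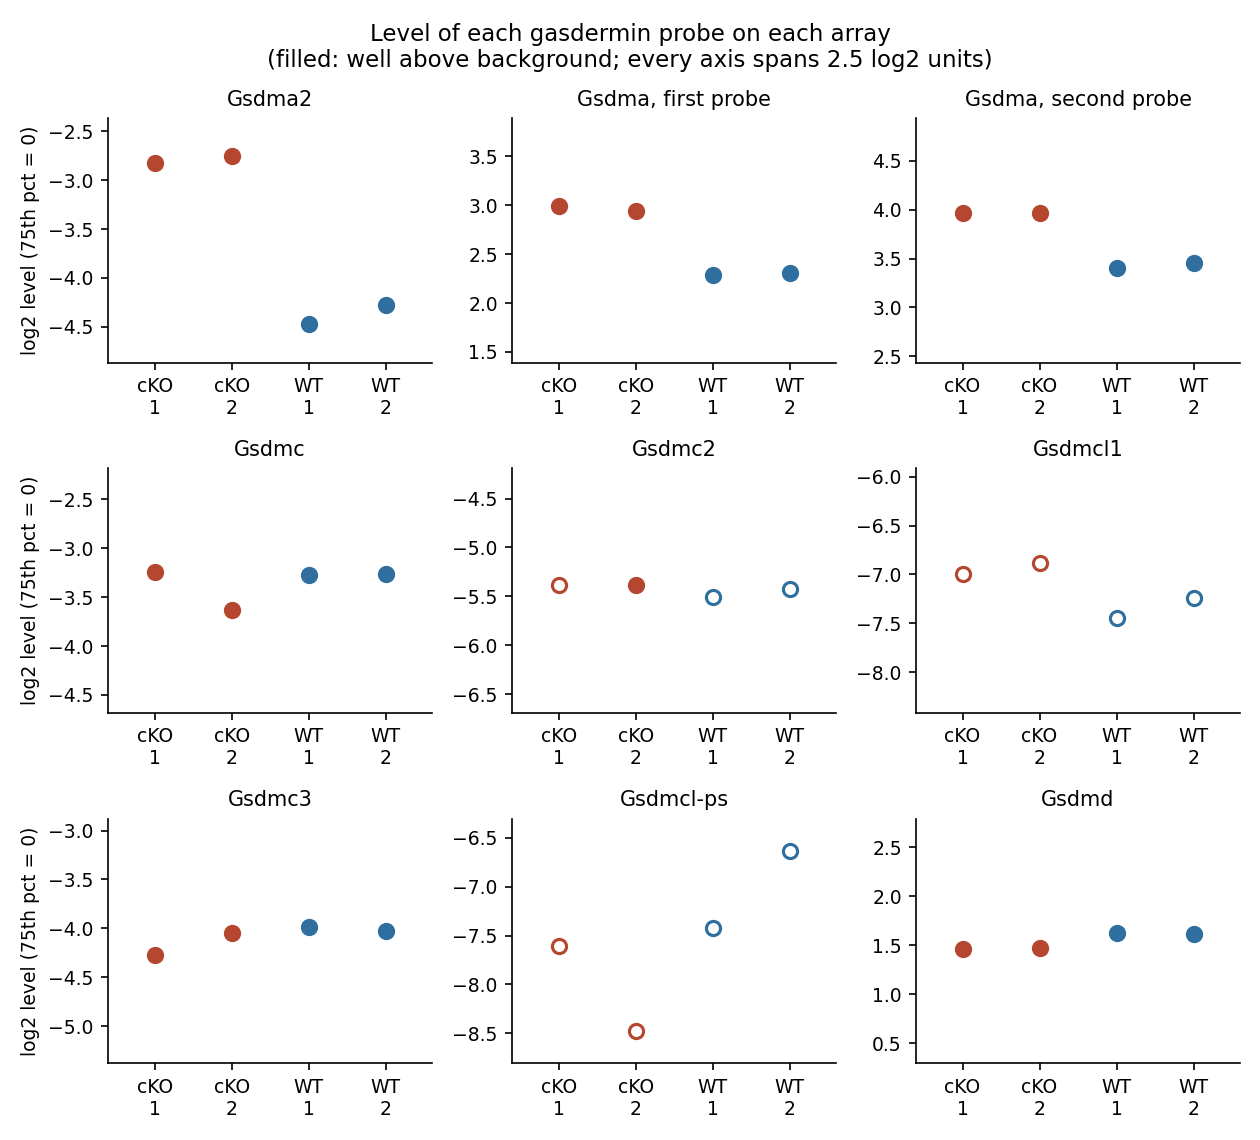
Scaled log2 level of each of the 9 gasdermin probes (vertical axis, 0 is the array's 75th percentile) on each of the 4 arrays (horizontal axis), with filled points where the probe was well above background. The cKO points of Gsdma2 and of both Gsdma probes lie above their WT points, those of Gsdmd lie slightly below, and those of Gsdmc overlap the WT points.

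Gsdma2, a copy next to Gsdma, showed the largest difference of the family. The probe read 198 and 215 in processed signal for cKO, against 57.2 and 67.9 for WT. Both cKO arrays lay well above both WT arrays, and all were well above background. Scaled log2 levels averaged -2.79 ± 0.048 for cKO and -4.37 ± 0.14 for WT (SD, n = 2). Gsdma2 rose by log2 1.59 (SE 0.085, 95% interval 1.33 to 1.84, limma adjusted p = 0.0030), or 3.0-fold. The call held under all 15 alternative settings, with log2 changes from 1.03 under normexp and quantile normalization to 1.69 without WT replicate 2. That lowest value belongs to the setting that replaced the scanner's own background correction.

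Gsdma, known from the epidermis and hair follicle, was read by a pair of probes that gave nearly the same answer on either side of the fold threshold. The probe at 98537811 had signals of 11177 and 11171 in cKO and 6208 and 6508 in WT. The cKO arrays were again the higher ones, and the duplicates of each pool lay close together. Levels averaged 2.97 ± 0.037 for cKO and 2.30 ± 0.013 for WT (SD, n = 2), and the probe rose by log2 0.67 (SE 0.032, 95% interval 0.57 to 0.77, limma adjusted p = 0.0027), or 1.59-fold. It was called under all 14 alternatives that held the probe, at 0.65 to 0.75.

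The other Gsdma probe, at 98537914, had signals of 21876 and 22727 in cKO and 13473 and 14396 in WT. The order of the arrays was the same as for its neighbour. Levels averaged 3.97 ± 0.0027 for cKO and 3.43 ± 0.033 for WT (SD, n = 2), a log2 difference of 0.54 (SE 0.030, 95% interval 0.45 to 0.63, limma adjusted p = 0.0032), or 1.45-fold, which missed the fold threshold and was not called. With quantile normalization, with or without normexp, its change was 0.65 and was called. The changes of the pair of probes differed by 0.13 on the log2 scale. Within each array the first probe lay below the second by log2 values of -0.97 and -1.02 in cKO and -1.12 and -1.15 in WT, which do not overlap. The smallest exact two-sided permutation p for 2 arrays against 2 is 0.333, so whether the pair of probes differ in their change could not be settled. Both probes gave more Gsdma signal on each cKO array than on either WT array.

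The 10 hair shaft keratins and the 6 root sheath genes called above rose far more than the Gsdma genes in the same arrays, while the companion layer keratin Krt75 (0.14) and Gata3 (0.23), a root sheath regulator, were not called. The part of hair follicle growth genes in the rise of Gsdma and Gsdma2 was not tested. Of 13 genes of differentiated epidermis none was called by limma. An adjusted p under 0.05 was reached by 12, a larger share than the 52.9% of all genes. An unadjusted p under 0.05 was reached by all 13, against 61.2% of all genes. The median log2 change of the 13 was -0.22 and their range -0.44 to 0.35. Of 7 basal epidermis genes none was called, 2 had an unadjusted p under 0.05, and the median was -0.09. Of 9 sebaceous gland genes, Soat1, which esterifies cholesterol, fell by log2 0.71 (limma adjusted p = 0.0032) and 8 were not called, with a median of -0.20.

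**Figure D2:**
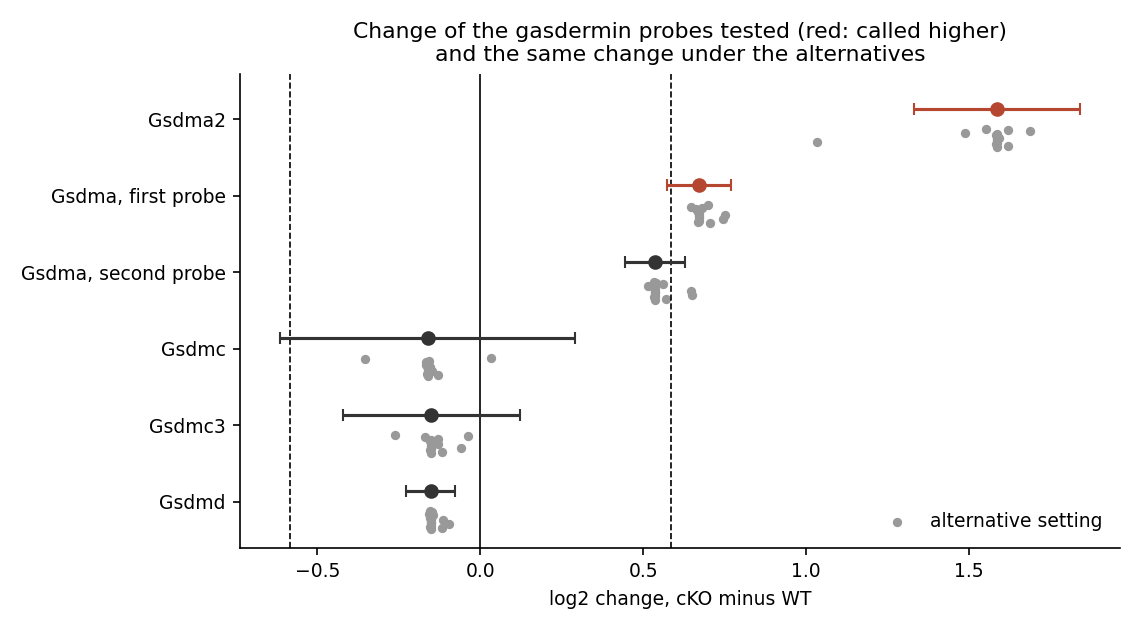
Log2 change (horizontal axis, cKO minus WT) of the 6 gasdermin probes tested, with 95% intervals, and in grey the same change under each alternative setting. Dashed lines mark 1.5-fold. Gsdma2 lies beyond the upper line at every setting, the Gsdma probes lie close to that line on either side of it, and the Gsdmc, Gsdmc3 and Gsdmd values lie between the lines.

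Gsdmd, the gasdermin cut by inflammatory caspases, was measured most thoroughly, with 10 spots on each array. The spots averaged 3869 and 4034 in processed signal for cKO, against 3923 and 4029 for WT. Before scaling, then, the pools were nearly level, and the spots of one array varied by a CV of 1.37% to 3.28%. On cKO array 1 a single spot of 3837 was marked as an outlier by the scanner software and left out. After scaling to the 75th percentile, which was 1403 and 1453 in cKO and 1271 and 1316 in WT, log2 levels averaged 1.47 ± 0.0060 for cKO and 1.62 ± 0.0072 for WT (SD, n = 2). The change of -0.15 (SE 0.025, 95% interval -0.23 to -0.077, limma adjusted p = 0.019) was under 1.5-fold and was not called. It lay between -0.16 and -0.10 over the alternatives, none of which called it. Its size thus rests on the scaling of the arrays, since the unscaled signals overlap between pools.

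**Figure D3:**
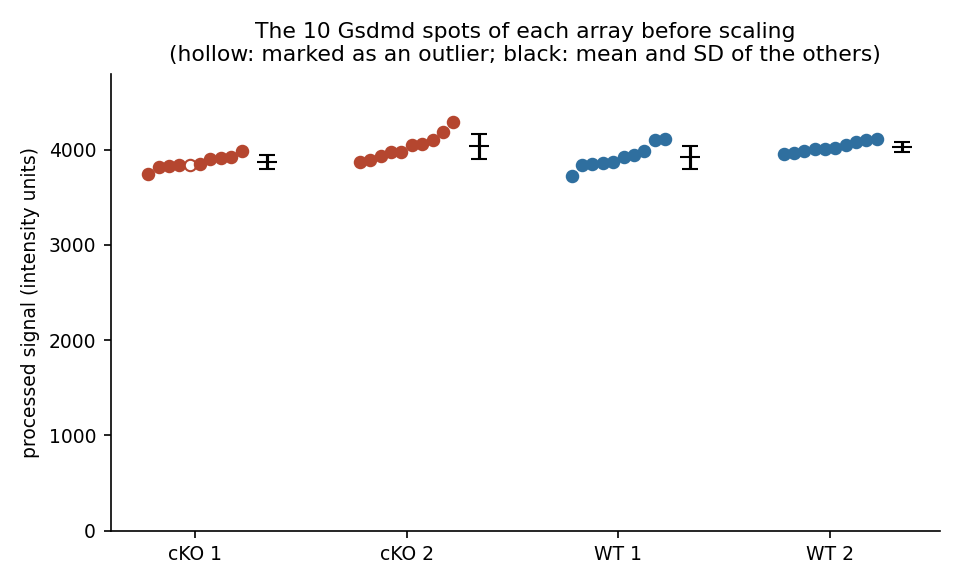
Processed signal (vertical axis, intensity units from 0) of the 10 Gsdmd spots on each array before scaling, with the mean and SD of the spots used in black and the spot marked as an outlier hollow. The spots of cKO array 1 run from 3749 to 3988, those of WT array 2 from 3950 to 4112, and the ranges of the arrays overlap.

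The Gsdmc copies were dim and none was called. Gsdmc had signals of 148 and 118 in cKO and 131 and 137 in WT. The cKO arrays lay on either side of the WT arrays, so the pools overlapped. Its log2 change was -0.16 (SE 0.15, 95% interval -0.61 to 0.29, limma adjusted p = 0.42), and without cKO replicate 2 it was 0.032. Gsdmc3 had 72.7 and 87.9 in cKO and 80.1 and 80.6 in WT, which overlap before scaling. On the scaled levels the cKO arrays were both slightly lower, and the log2 change was -0.15 (SE 0.091, 95% interval -0.42 to 0.12, limma adjusted p = 0.25). Both intervals include 0 and reach down to -0.42 or lower, so a small difference would not have been detectable with these arrays.

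The remaining 3 probes gave no level that could be compared. Gsdmc2 had signals of 33.5 and 34.9 in cKO and 28.0 and 30.6 in WT, and was well above background on cKO array 2 alone. Gsdmcl1, which RefSeq lists as a transcribed pseudogene on GRCm38.p6, had 10.997 and 12.3 in cKO and 7.30 and 8.71 in WT, not well above background on any array. Gsdmcl-ps, another pseudogene, had 7.18 and 4.09 in cKO and 7.39 and 13.2 in WT, also not well above background. No fold is given for these, and the order of their arrays carries no information at this signal. Gsdma3 and Gsdmc4 were not analysed here.

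A further gasdermin, Gsdme, stands in the files under its older name, Dfna5, and so lies outside the rule. Its brightest probe had signals of 383 and 392 in cKO and 383 and 422 in WT, a log2 difference of -0.20 (SE 0.043, limma adjusted p = 0.034) that was under 1.5-fold and not called. The other 3 Gsdme probes were not well above background on both arrays of either pool and were not tested. No probe was matched to Pjvk, the remaining relative.

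No gene within 250 kb of a gasdermin probe was called by limma in either direction, although at an unadjusted p under 0.05 there were 10 such probes of 24 near Gsdma, 1 of 7 near the Gsdmc group and 12 of 29 near Gsdmd. Over all probes 58.8% had an unadjusted p under 0.05. Near the Gsdma probes, 24 probes of 16 other genes were tested, with a median log2 change of 0.06 and a range of -0.26 to 0.78. The nearest tested, Psmd3, a proteasome subunit gene 19.2 kb away, had 0.05 (limma adjusted p = 0.28). The largest of these changes, at the replication licensing gene Cdc6, was 0.78 (SE 0.36, limma adjusted p = 0.16), with WT signals of 176 and 95.0. Without WT replicate 1 the change of this Cdc6 probe reached 1.252. The other tested Cdc6 probe had 0.46 (limma adjusted p = 0.49), with WT signals of 53.7 and 139, the opposite order of the WT arrays. Around the Gsdmc group 7 probes were tested, from -0.54 to -0.02, and the lowest was a Cyrib probe 4.09 kb away with -0.54 (limma adjusted p = 0.0051), while other Cyrib probes had -0.04 and -0.07. Around Gsdmd 29 probes were tested, from -0.49 to 0.98. The nearest was also the lowest, a transcript named NAP026415-1 in the files, 11.1 kb away, with -0.49 (limma adjusted p = 0.013). The highest, a Zc3h3 probe, had signals of 273 and 55.1 in cKO and 39.0 and 81.3 in WT, so that its value of 0.98 (SE 0.99) hung on 1 array and was -0.20 without cKO replicate 1.

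**Figure D4:**
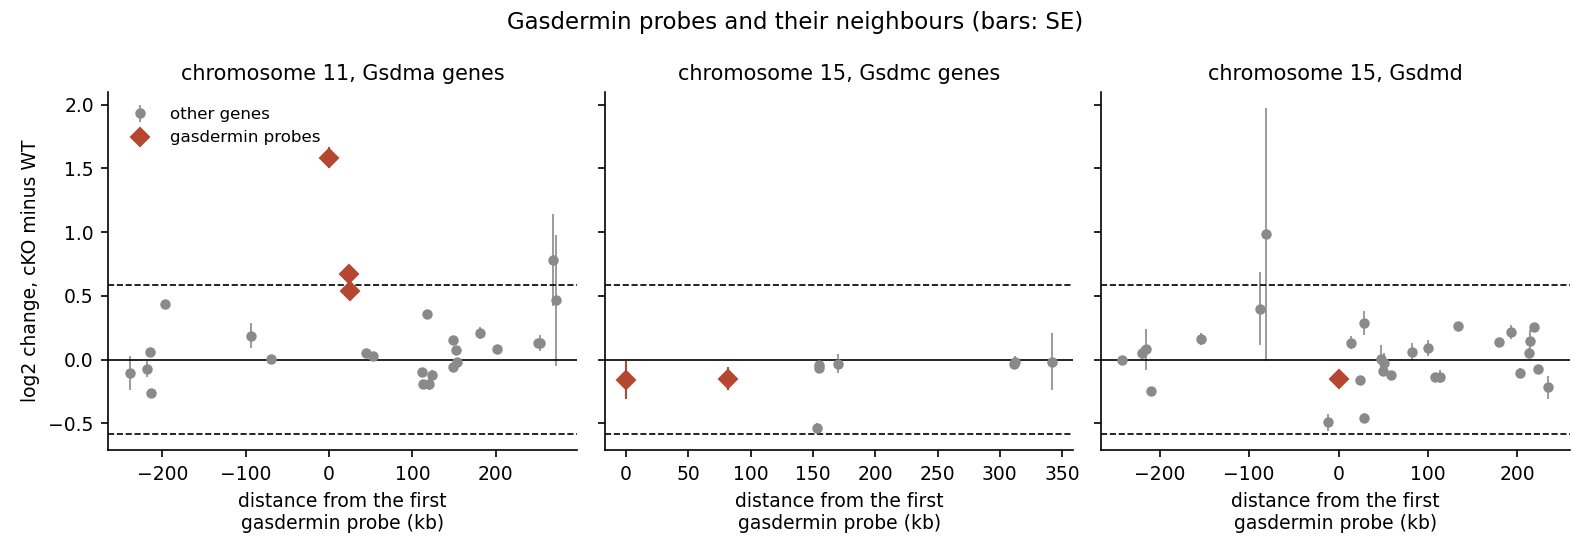
Log2 change (vertical axis, cKO minus WT, bars are SE) of tested probes against their distance in kb from the first gasdermin probe (horizontal axis) at the 3 loci, with gasdermin probes as red diamonds and other genes in grey. Dashed lines mark 1.5-fold. The Gsdma2 probe stands above the other probes of its locus, and no neighbour was called at any locus.

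The probes of other named genes whose pattern over the 4 arrays was most like a called gasdermin probe were found by the Euclidean distance between log2 levels centred on each probe's mean. Only probes well above background on all 4 arrays were compared, so those dim in either pool were left out. With 4 arrays of 2 pools, a short distance says little more than that the change is of the same size, and these values are a description. For Gsdma2, over 22189 probes, the nearest were the simple epithelial keratin Krt18 (distance 0.079, log2 change 1.66), Samd5 (0.13, 1.52) and Bean1 (0.13, 1.68). For the called Gsdma probe, over 22188 probes, they were Atad5, which unloads the replication clamp (0.011, 0.68), the mitotic kinase Aurka (0.023, 0.67) and the ubiquitin ligase subunit Fbxl2 (0.029, 0.70).

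The genes that act with gasdermins were described by 6 lists of 61 genes, of which 50 could be tested by their brightest probe. Of these 50, 1 rose, 2 fell and 47 were not called, with a median log2 change of -0.11. Over all 17553 genes tested in this way 10.4% were called, 5.64% higher and 4.79% lower, so the lists held no larger share of calls than the arrays as a whole. Genes named in the next paragraphs that were not called, other than the brightest of their list, were picked after their values were seen.

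The list of caspases and granule proteases gave no limma call among 8 tested, with a median of -0.13 and a range of -0.85 to 0.18. An unadjusted p under 0.05 was reached by 5 of them, a share near the 61.2% of all genes. Whether each of them cuts a mouse gasdermin was not examined. Casp4, which senses lipopolysaccharide inside cells and cuts Gsdmd, had signals of 4396 and 4474 in cKO and 5687 and 5939 in WT. Both cKO arrays were lower, and the log2 change of -0.53 (SE 0.027, limma adjusted p = 0.0029) came just short of 1.5-fold. Casp1, the inflammasome protease, had 3939 and 4412 in cKO and 4362 and 4671 in WT, signals that overlap before scaling, with a log2 change of -0.26 (limma adjusted p = 0.030). Casp8, which acts in death receptor signalling, had a log2 change of 0.022 (limma adjusted p = 0.50). The granule protease Gzma, of cytotoxic lymphocytes, had the lowest value, -0.85, with WT signals as far apart as 159 and 108 (limma adjusted p = 0.058).

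Among 9 inflammasome genes tested, 1 rose. Txnip, a thioredoxin-binding protein described as a partner of the sensor Nlrp3, had signals of 23884 and 24852 in cKO and 11490 and 11640 in WT. The cKO arrays were the higher ones with no overlap, and the log2 rise was 0.93 (SE 0.027, limma adjusted p = 0.0016), or 1.91-fold, while a further Txnip probe gave 0.78. The sensor Nlrp3 itself had 0.083 (SE 0.21). The adaptor Pycard, which joins sensors to Casp1, had -0.19 (limma adjusted p = 0.023), and Mefv, the pyrin sensor, had 0.37 (limma adjusted p = 0.0043), both short of 1.5-fold. The median of the 9 was -0.12.

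The interleukin 1 family held 18 tested genes, of which 2 fell, 16 were not called and none rose, with a median of -0.28. An adjusted p under 0.05, whatever the fold, was reached by 13 of the 18, where 52.9% of all genes reached it. Il33, an alarm cytokine kept in epithelial nuclei, had signals of 2245 and 2189 in cKO and 3081 and 3112 in WT and fell by log2 0.62 (SE 0.044, limma adjusted p = 0.0042). Without cKO replicate 2 its change was -0.58, just under 1.5-fold, and was not called. Irak4, a kinase downstream of the interleukin 1 and Toll-like receptors, had 88.0 and 95.6 in cKO and 172.5 and 172.2 in WT and fell by log2 1.05 (SE 0.041, limma adjusted p = 0.0021). The other Irak4 probe gave -0.18, so the gene's fall rests on 1 probe.

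The other interleukin 1 family genes were not called by their brightest probes. Il1b had 114 and 123 in cKO and 99.7 and 103 in WT, with a log2 change of 0.084 (limma adjusted p = 0.13). Il18, which keratinocytes hold as a precursor, had 4012 and 4154 in cKO and 4908 and 5012 in WT, with -0.42 (SE 0.026, limma adjusted p = 0.0035), short of 1.5-fold though no arrays overlapped. Il1a had -0.26 (limma adjusted p = 0.027). The decoy receptor Il1r2 had -0.35 (limma adjusted p = 0.0048). Il1rl1, the receptor of Il33, had -0.56 by its brightest probe and, called lower, -1.74 by the other, a disagreement that leaves its size unsettled.

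By brightest probe, membrane rupture and repair genes had the narrowest range among the 4 lists with over 5 tested genes. All 9 lay between -0.14 and 0.10, none was called by limma, and 3 had an unadjusted p under 0.05. Other probes could lie further out, and the 4 tested Pdcd6ip probes ran from -0.65 to 0.14. Ninj1, whose product tears the plasma membrane after gasdermin pores form, had signals of 6040 and 6101 in cKO and 5256 and 5409 in WT and a log2 difference of 0.045 (SE 0.028, limma adjusted p = 0.27). The brightest of the list, the membrane repair genes Chmp4b and Pdcd6, had -0.14 (limma adjusted p = 0.045) and -0.05 (limma adjusted p = 0.25). Vps4b had 0.0032 by its brightest probe. A further Vps4b probe, not well above background in WT, was at least 1.12-fold higher and was not called either (limma adjusted p = 0.12). The 5 transcription factors known to act on gasdermin genes were also uncalled by limma, 2 of them with an unadjusted p under 0.05, and ran from -0.11 to 0.0024. The brightest, Irf1 and Stat6, had -0.11 (limma adjusted p = 0.056) and -0.09 (limma adjusted p = 0.083), and Irf2, known as an activator of Gsdmd, had 0.0024 (SE 0.053).

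**Figure D5:**
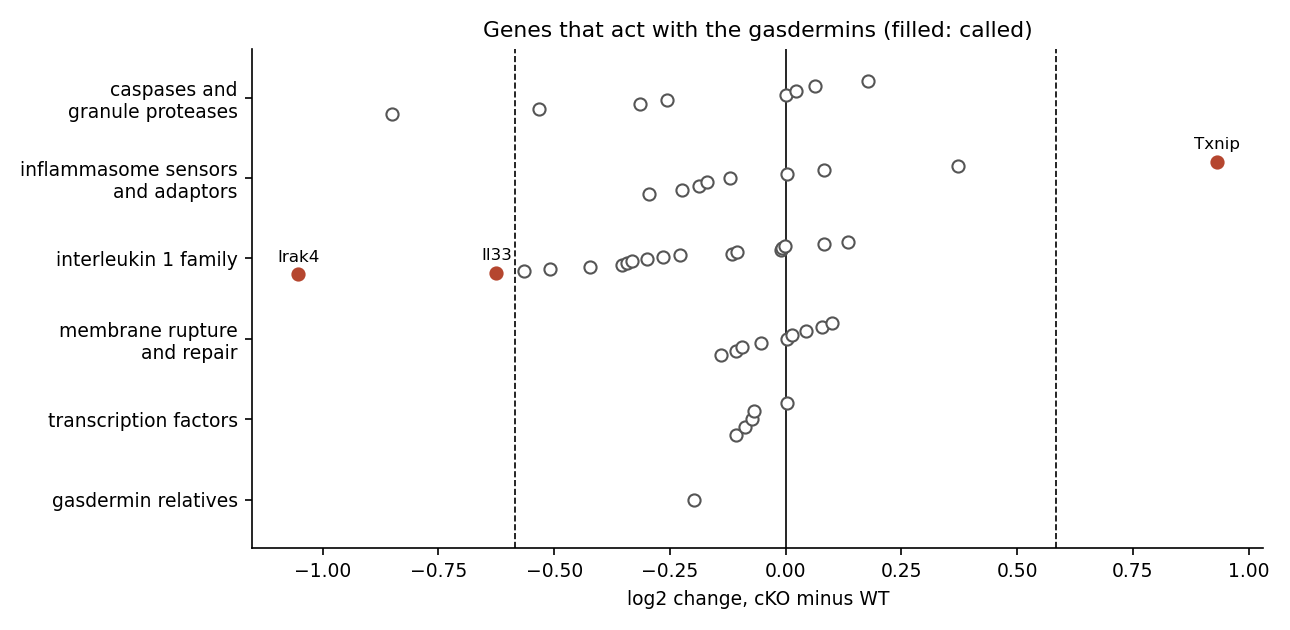
Log2 change (horizontal axis, cKO minus WT) of the 50 genes tested in the 6 lists of genes that act with gasdermins (rows, each gene's brightest probe), with called genes filled and dashed lines at 1.5-fold. Txnip lies beyond the upper line and Il33 and Irak4 beyond the lower one, Gzma lies beyond the lower line without passing the test, and the membrane rupture genes lie close to 0.

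Cells that carry these pathways were checked by their markers. Of 10 macrophage, Langerhans cell and neutrophil genes, the neutrophil gene S100a9 fell by log2 0.70 (limma adjusted p = 0.0024) and 9 were not called. Its partner S100a8 had 0.32 (limma adjusted p = 0.0066), the opposite sign, and the Langerhans cell gene Cd207 had 0.39 (limma adjusted p = 0.029). The list had a median of -0.10 and a summed scaled level of 136 to 139 in cKO and 149 to 150 in WT. Most of that sum came from Lyz2, with 160695 and 163488 of summed processed signals of 194609 and 197637 in cKO. In WT it gave 155288 and 162604 of 189148 and 197689. Of 6 T cell genes, Cd4 was at least 14.02-fold higher, with neither WT array well above background, and 5 were not called, with summed levels of 24.4 to 24.6 in cKO and 25.5 to 26.1 in WT. Nearly all of these sums came from Thy1, so they mainly describe that gene. Thy1 gave 32076 and 33542 of summed processed signals of 34228 and 35775 in cKO. In WT it gave 30953 and 32640 of 32444 and 34345. A further Cd8a probe, not well above background in WT, had signals of 206 and 27.4 in cKO and was not called (limma adjusted p = 0.11). Of 6 fibroblast genes read by their brightest probes, Lum fell and 5 were not called, with a median of -0.17. Their summed levels were 764 to 766 in cKO and 828 to 909 in WT. Further tested probes went lower, to -0.82 for Col1a2, -0.81 for Col3a1, -0.66 for Pdgfra and -0.48 for Col1a1. Of 5 adipocyte genes, Lep fell by log2 0.97 (limma adjusted p = 0.0016) and 4 were not called, with a median of -0.11, while Fabp4 had 0.19 (limma adjusted p = 0.012). The summed adipocyte level was 220.2 to 220.5 in cKO and 208.5 to 210.05 in WT, most of it from Fabp4. Of 6 skeletal muscle genes, 3 fell (Casq1, Actn3 and Ckm) and the median was -0.60, with summed levels of 616 to 617 in cKO and 873 to 911 in WT. The part of such shifts in the lower Il33, Irak4, Casp4 and Il18 values was not tested.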

How the data were processed

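The authors' scanner files come from Agilent's Feature Extraction software (version 10.7.3.1, per the file headers). The deposited processed intensity of each spot, from which that software had subtracted background, was the starting value. The arrays shared 1 slide and 1 scan time, so no batch could be fitted. The value table that the authors deposited holds a linear ratio, made by dividing every intensity of an array by the same number, and is uncentred across genes (column medians 0.101, 0.0983, 0.0987 and 0.101). It served as an alternative.

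For the 43379 non-control spots, the array's 75th percentile was subtracted on the log2 scale. Outlier spots (74 to 143 per array) were treated as missing and replicate spots of a probe averaged. Saturated spots were absent. Probes stayed in the fit when both arrays of either pool read them well above background, which asked this of at least 0.5 of a probe's unflagged spots. limma (version 3.58.1, R version 4.3.3) fitted 26068 probes without covariates using lmFit and eBayes. Its two-sided p-values were adjusted over all of these by the Benjamini-Hochberg method. Called probes differed 1.5-fold or more with an adjusted p under 0.05, and only of these do the words rose and fell speak. List genes were read by the kept probe that was brightest on average. Where neither array of one pool read a probe well above background, the fold is a bound: the dim pool's value per array was raised to the lowest well-detected signal if it lay beneath it.

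A RefSeq table (GRCm38.p6) served to update names only. It matched 26690 probes through their accession, 5189 through their symbol and 952 through a synonym, while 8343 stayed as the files name them. Il36 genes stand in the files under their older Il1f names. Probe sequences are those of the scanner files. The software used for handling and plotting was data.table version 1.17.8, Python version 3.11.15, pandas version 2.3.3 and matplotlib version 3.10.9.

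The gasdermin genes and the lists were chosen with earlier results of these data known. The rule for named genes took in every Gsdm probe, all called members of each list (or its 2 brightest where none was called), at most 3 called markers per list, neighbours within 250 kb (the nearest tested and the most changed), and the 3 probes nearest in pattern to each called gasdermin probe. The rule also named Fgf18, Actb and Gapdh as checks. Any other gene was named after its values were seen. The values of some list genes are not reported here. The fit was tested on simulated data. The alternatives were quantile normalization with and without normexp (offset 50), median scaling, the percentile over detected probes, the authors' values, other filters on dim probes, 1 probe per gene, retained outlier spots, a variance trend with robust moderation, a replicate block, and each array left out.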

Additional observations from a re-analysis of the deposited data

How the results depend on the processing

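With 2 arrays per pool and 1 pool per genotype, the number of arrays limits the precision. Over the 15 alternatives, 2 gasdermin probes were called higher, except 3 under quantile normalization with or without normexp and 1 with 1 probe per gene, where the called Gsdma probe was not in the fit. No alternative called a gasdermin probe lower. Leaving out each array in turn gave 2 higher each time, with Gsdma2 between 1.49 and 1.69 and Gsdmd between -0.16 and -0.15. The change of Gsdmc reversed to 0.032 without cKO replicate 2 and was -0.36 without cKO replicate 1, and that of a Zc3h3 probe reversed to -0.20 without cKO replicate 1 and was 2.16 without cKO replicate 2. Genes on the pathway lists called lower numbered 2 or 3 and those called higher 1. Ckm and Lum lost their calls under quantile normalization (-0.48 and -0.44) and with normexp as well (-0.49 and -0.43). Over all probes, 1283 were higher and 1250 lower, against 863 and 655 with normexp and quantile normalization, 1378 and 1076 with the percentile taken over detected probes, and 924 and 1156 under the stricter filter. The cause of these shifts was not tested. The replicate numbers name arrays only: deviations of arrays with the same number correlated at -0.020. With the replicate block 1247 probes were higher and 1200 lower, and the calls of the gasdermin probes were 2 higher and 0 lower, as without it.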
